A study of Mus musculus with 12 samples.

Results

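The genes described here are 10 genes of hepatic stellate cells and liver fibrosis, out of 31253 gene symbols listed for 12 mouse liver libraries. They were taken by name: the fibrillar collagen chains Col1a1, Col1a2 and Col3a1, the basement membrane chains Col4a1 and Col4a2, the proteoglycans Dcn and Lum, and Acta2, Timp1 and Lrat. All 10 were listed and all 10 were among the 12120 genes tested, those with a value above 1 in at least 3 libraries, although Col1a1 and Timp1 only just met that rule. The study measured messenger RNA in total liver RNA from male C57BL6 mice in 4 groups of 3 libraries. WT_Ctrl was untreated wild type, and WT_DEN was wild type injected with diethylnitrosamine (DEN), a carcinogen that hepatocytes activate, with a dose of 50 µg per g given at an age of 3 weeks. S302A_Ctrl and S302A_DEN were the untreated and the injected mice with the CUGBP1 s302a knock-in, a serine-to-alanine change in an RNA-binding protein. All livers were collected at 33 to 41 weeks of age, 30 to 38 weeks after the age of injection. The labels do not say whether tumours were part of the tissue, whether the knock-in was homozygous or whether each library was a separate animal, so a p-value here reflects only how these libraries vary. Values are TPM, a relative measure of transcript level per length and library, which keep no sequencing depth, so the depth behind each value is unknown. No value lay below 1, and a listed 1 was read as 1 or less.

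Stellate cells lie between hepatocytes and the sinusoidal endothelium and store vitamin A in the quiescent state. In chronic injury they lose that store and become contractile, matrix-making cells, and fibrillar collagen, small proteoglycans and inhibitors of matrix breakdown build up as scar. Portal fibroblasts and vessel muscle make some of the same products, so in whole liver these genes have more than 1 cellular source. The genes that mark stellate cells, quiescent cells included, ran from the floor upwards. Gfap and Hhip stood at 1 TPM in all 12 libraries and Lrat stayed between 1 and 3.76 TPM. Reln stood at 5.64 to 86.0 TPM, Colec11 at 8.19 to 25.8 TPM and Ecm1 at 19.9 to 71.9 TPM. In bulk tissue, fewer cells of a type and less RNA per cell cannot be told apart.

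One library, S302A_DEN replicate 3, was unlike the remaining 11. It listed 13083 genes above 1 TPM, against 10839 to 11653, and a median-of-ratios factor, which compares each library with the gene-wise mean of all, was 1.69 for it and 0.820 to 1.18 for the rest. Of the 12120 genes tested, 70.8% were highest in that library as deposited and 24.0% after division by the factors. Every member's values below are therefore given with this library named, and each comparison is given with and without it.

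The fibrillar chains were low in 10 of the 12 libraries and highest in S302A_DEN replicates 1 and 3. In the 10, Col1a1 and Col1a2 did not exceed 1.29 TPM and Col3a1 did not exceed 3.02 TPM. Col1a1, which encodes the α1 chain of type I collagen, the main scar collagen, stood at 1 TPM in all 6 wild-type libraries. Its S302A_Ctrl values were 1, 1.06 and 1 TPM and its S302A_DEN values 1.99, 1 and 10.5 TPM. Only the knock-in libraries listed any Col1a1 above 1, and S302A_DEN replicate 2 did not. Col1a2, the α2 chain, stood at 1.14, 1.15 and 1.00 TPM in WT_Ctrl, at 1.20, 1 and 1.23 TPM in WT_DEN and at 1, 1.29 and 1.03 TPM in S302A_Ctrl. The S302A_DEN libraries held 1.91, 1 and 11.6 TPM. The first 3 groups overlapped throughout, and the S302A_DEN libraries held both the highest value and one at the floor. Col3a1, the chain of type III collagen, which mixes with type I in early scar, stood at 2.62, 2.80 and 1.96 TPM in WT_Ctrl, at 3.02, 1.51 and 1.70 TPM in WT_DEN and at 1.55, 2.48 and 2.25 TPM in S302A_Ctrl. In S302A_DEN it stood at 4.77, 1 and 20.2 TPM, so the DEN-treated knock-in group held the lowest value and the highest values of the 12 libraries.

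In mm10 Col1a1 is on chromosome 11 from 94936224 to 94953042, Col1a2 on chromosome 6 from 4504814 to 4541544 and Col3a1 on chromosome 1 from 45311538 to 45349706, all on the plus strand. The promoter windows of RefSeq (GRCm38.p6), from 250 bases before to 50 bases after a gene's start, held 7 of the 10 members. Col1a1, Dcn and Lum had no entry. The windows of Col1a2 (chr6:4505368-4505667, plus strand) and Col3a1 (chr1:45311288-45311587, plus strand) are shown because these genes had the largest differences between S302A_DEN replicate 3 and the mean of the other libraries within the fibrillar chains. Capitals mark matches, on either strand, to the letters TATAAA of the TATA box, to the box of letters CCAAT, to the GC box as GGGCGG, to the core that SMAD proteins bind as CAGAC, or to the AP-1 site as TGANTCA.
Col1a2: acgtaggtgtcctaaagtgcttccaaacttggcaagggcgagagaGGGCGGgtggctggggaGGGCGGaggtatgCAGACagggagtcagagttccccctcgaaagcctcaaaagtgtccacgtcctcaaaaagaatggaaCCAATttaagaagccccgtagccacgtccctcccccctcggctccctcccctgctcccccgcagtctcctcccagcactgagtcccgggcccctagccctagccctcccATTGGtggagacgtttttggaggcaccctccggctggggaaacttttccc
Col3a1: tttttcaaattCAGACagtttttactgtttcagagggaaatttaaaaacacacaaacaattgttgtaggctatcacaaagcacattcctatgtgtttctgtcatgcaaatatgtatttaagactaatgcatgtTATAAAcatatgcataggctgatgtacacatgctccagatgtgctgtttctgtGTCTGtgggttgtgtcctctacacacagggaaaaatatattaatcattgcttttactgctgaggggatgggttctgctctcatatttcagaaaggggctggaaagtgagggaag
The Col1a2 window is 61% G or C with 13 CpG pairs, and the Col3a1 window 37.7% with 0 CpG, against medians of 52.7% and 7 over all 32851 windows. The RefSeq start of Col1a2 lies within the span of the gene given above. Col3a1 was the 1 of 7 member windows with TATAAA, which 13.6% of all windows hold. CCAAT was found in 5 of the 7 (37.4% of all windows), GGGCGG in the same 5 (35.7%), CAGAC in 4 (49.6%) and TGANTCA in 0 (7.81%). The 5 with CCAAT and GGGCGG were Col1a2, Col4a1, Col4a2, Timp1 and Lrat, and the 4 with CAGAC were Col1a2, Col3a1, Col4a2 and Acta2.

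The basement membrane chains were listed above the floor in all 12 libraries, between 1.03 and 3.35 TPM outside S302A_DEN replicate 3. Col4a1, the α1 chain of the type IV collagen network, stood at 1.64, 2.01 and 1.76 TPM in WT_Ctrl, 3.07, 1.41 and 1.98 TPM in WT_DEN, 1.89, 2.12 and 2.36 TPM in S302A_Ctrl and 3.35, 2.32 and 17.4 TPM in S302A_DEN. Its partner chain Col4a2 stood at 1.03, 2.07 and 1.74 TPM in WT_Ctrl, 2.57, 1.08 and 1.40 TPM in WT_DEN, 1.42, 1.94 and 2.09 TPM in S302A_Ctrl and 2.23, 1.13 and 12.5 TPM in S302A_DEN. For both chains the groups overlapped, WT_DEN replicate 1 was the highest of its group, and S302A_DEN replicate 3 was the highest of all.

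The 2 genes lie head to head on mm10 chromosome 8, Col4a1 from 11198423 to 11312826 on the minus strand and Col4a2 from 11312805 to 11449287 on the plus strand, so their first 22 bases overlap on opposite strands. They also overlap the antisense genes Gm15418 and Gm15419. Whether the libraries kept strand is not stated. The RefSeq windows of Col4a1 (chr8:11312777-11313076, minus strand) and Col4a2 (chr8:11312555-11312854, plus strand) are shown because the 2 genes share their start region. Capitals mark the 78 bases that both windows hold, from 11312777 to 11312854, read on opposite strands.
Col4a1: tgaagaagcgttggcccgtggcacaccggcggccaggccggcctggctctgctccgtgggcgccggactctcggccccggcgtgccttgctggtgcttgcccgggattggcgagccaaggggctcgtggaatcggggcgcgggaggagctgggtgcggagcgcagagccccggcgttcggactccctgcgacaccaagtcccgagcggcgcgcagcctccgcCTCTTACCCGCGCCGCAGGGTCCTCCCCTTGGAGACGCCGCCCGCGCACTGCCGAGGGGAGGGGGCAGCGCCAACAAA
Col4a2: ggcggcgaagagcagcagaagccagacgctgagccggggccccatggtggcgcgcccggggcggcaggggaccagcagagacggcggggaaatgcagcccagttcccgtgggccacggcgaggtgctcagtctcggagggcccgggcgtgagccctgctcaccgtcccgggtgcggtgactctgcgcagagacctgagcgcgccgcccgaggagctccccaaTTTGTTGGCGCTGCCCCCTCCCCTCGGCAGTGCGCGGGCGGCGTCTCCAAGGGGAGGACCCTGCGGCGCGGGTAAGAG
These windows are 74% and 73.7% G or C and hold 37 and 33 CpG pairs, the highest counts of the 7 member windows.

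Type I and type IV collagen are built from fixed sets of these chains, and the ratios of their levels (TPM, already divided by transcript length) could be compared within libraries. Col1a1 over Col1a2 could be formed in the 3 libraries that listed both above 1 and was 0.818 in S302A_Ctrl replicate 2, 1.04 in S302A_DEN replicate 1 and 0.903 in S302A_DEN replicate 3. Col1a1 over Col3a1 was 0.425, 0.417 and 0.519 in the same libraries. Col4a1 over Col4a2 was 0.970 to 2.05 over all 12 libraries and 1.40 in S302A_DEN replicate 3. In S302A_DEN replicate 3 each of the 3 ratios was therefore within or near the range of the other libraries, while the levels themselves were 4.22 to 6.05 times the next highest. The highest ratio of the type IV pair, in S302A_DEN replicate 2, came with a Col4a2 level of 1.13 TPM, near the floor.

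The proteoglycans differed from the collagens in level. Dcn, which encodes decorin, a small proteoglycan that binds collagen fibrils, was the most abundant member in every library. It stood at 44.9, 44.5 and 35.5 TPM in WT_Ctrl, 64.0, 42.8 and 52.6 TPM in WT_DEN, 27.9, 35.0 and 35.3 TPM in S302A_Ctrl and 48.0, 21.7 and 98.7 TPM in S302A_DEN. The S302A_Ctrl libraries all lay below the WT_Ctrl libraries, by a narrow margin between 35.3 and 35.5 TPM, and S302A_DEN held the lowest and the highest value of the series. Lum, which encodes lumican, a related proteoglycan of collagen fibrils, stood at 3.25, 3.02 and 1.17 TPM in WT_Ctrl and 1.86, 2.29 and 2.41 TPM in WT_DEN. The S302A_Ctrl values were 2.15, 1.87 and 1 TPM and the S302A_DEN values 3.44, 1.78 and 7.66 TPM. All 4 groups of Lum overlapped. Dcn (97479609 to 97518143) and Lum (97565128 to 97572703) lie side by side on the plus strand of mm10 chromosome 10.

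The remaining members, Acta2, Timp1 and Lrat, were low. Acta2, the smooth muscle actin that marks contractile myofibroblasts, stood at 1.36, 1.00 and 1 TPM in WT_Ctrl, 2.28, 1 and 1 TPM in WT_DEN, 1.58, 1 and 1 TPM in S302A_Ctrl and 1.10, 1.85 and 4.49 TPM in S302A_DEN. In each of the first 3 groups 1 library, replicate 1, stood clearly above the floor. In S302A_DEN replicates 2 and 3 did, while replicate 1 stood near the floor at 1.10 TPM. Timp1, the metalloproteinase inhibitor that activated stellate cells secrete, stood at 1 TPM in all 6 wild-type libraries, with S302A_Ctrl values of 1, 1 and 1.10 TPM and S302A_DEN values of 1.45, 1 and 4.97 TPM. As with Col1a1, the values above the floor were all in knock-in libraries and S302A_DEN replicate 2 had none. Lrat, the enzyme that esterifies retinol for storage, stood at 2.10, 1.26 and 1.28 TPM in WT_Ctrl, 2.53, 1.39 and 1.68 TPM in WT_DEN, 1.61, 2.29 and 1.26 TPM in S302A_Ctrl and 1, 1 and 3.76 TPM in S302A_DEN. S302A_DEN replicates 1 and 2 were the only libraries in which Lrat stood at the floor, while replicate 3 held its highest value.

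Acta2 is annotated on chromosome 19 of mm10 from 34241090 to 34255590 on the minus strand and Lrat on chromosome 3 from 82892579 to 82903973 on the minus strand, inside the antisense gene Rbm46os. Timp1 is on chromosome X, from 20870166 to 20874735 on the plus strand, inside the span of Syn1 on the opposite strand. Syn1 stood at 1 TPM in all 12 libraries. Where exons of Lrat and Rbm46os overlap, which was not examined, their reads could not be told apart if strand was not kept. The plot of the 10 genes by library shows S302A_DEN replicate 3 on top in each panel.

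**Figure D1:**
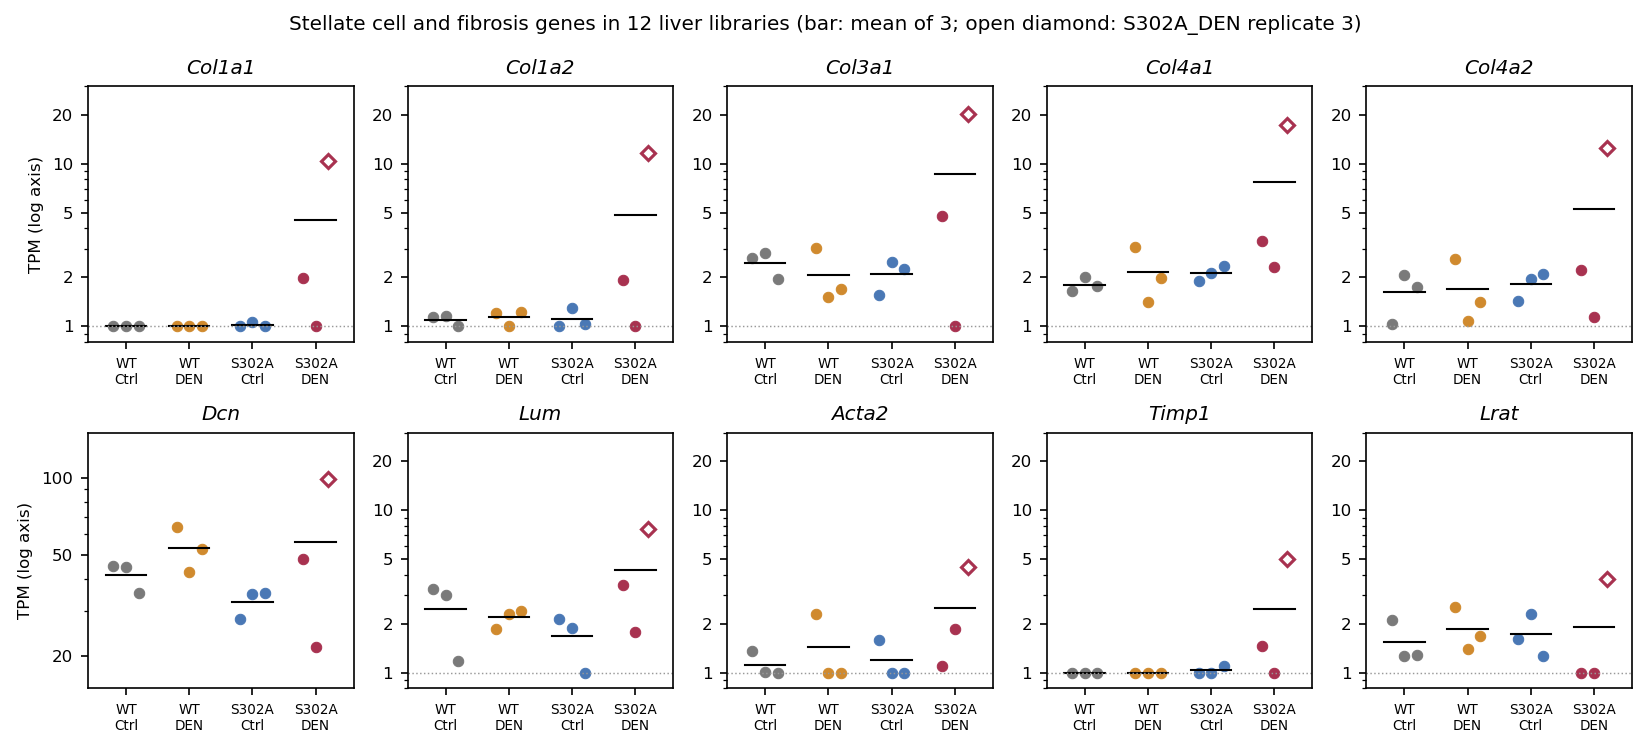
TPM (log axis) of each of the 10 genes in every library, by group, with a bar at the mean of 3 and a dotted line at 1 TPM, the lowest listed value. S302A_DEN replicate 3 (open diamond) is the highest point in each panel, at 3.76 TPM for Lrat and 98.7 TPM for Dcn, and S302A_DEN replicate 2 lies at 1 TPM for Col1a1, Col1a2, Col3a1, Timp1 and Lrat.

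DEN against no treatment in wild type asks whether these genes stood higher 30 to 38 weeks after the carcinogen. They did not differ beyond the spread between libraries. Differences on the log2(TPM + 1) scale ran from -0.19 for Col3a1 to 0.33 for Dcn. Dcn averaged 41.6 ± 5.35 TPM (SD, n = 3) in WT_Ctrl and 53.1 ± 10.6 TPM in WT_DEN (adjusted p = 0.931, the smallest of the 10). Col1a1 and Timp1 showed no difference, being at the floor in all 6 libraries. Of the 10 members 0 were called by limma at an adjusted p under 0.05, and 0 had an unadjusted p under 0.05, against 0.132% of all 12120 genes called and 1001 genes at an unadjusted p under 0.05. Groups did not overlap for 0 of the 10, against 24.9% of all genes. The members' median was 0.03, against 0.13 over all genes. After median-of-ratios scaling these were -0.08 and -0.02. Fitted without S302A_DEN replicate 3, the 8 members still tested had a median of 0.08, against 0.14 over all genes, and 0 were called. The 95% intervals were wide, from -0.54 to 1.20 for Dcn and from -1.50 to 1.11 for Col3a1.

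DEN against no treatment in the knock-in gave a higher mean log2 value for 9 of the 10 genes, and for 79.3% of all genes. S302A_DEN replicate 3 lay far above the other libraries for most members. Col4a1 averaged 2.12 ± 0.238 TPM in S302A_Ctrl and 7.68 ± 8.42 TPM in S302A_DEN, a log2 difference of 1.04 (95% interval 0.00 to 2.09, limma adjusted p = 0.304). Col3a1 differed by 1.03 (adjusted p = 0.390), Col1a1 by 1.02 (adjusted p = 0.295) and Col1a2 by 0.99 (adjusted p = 0.323). Lum differed by 0.85 (adjusted p = 0.293), Col4a2 by 0.69 (adjusted p = 0.462) and Timp1 by 0.60 (adjusted p = 0.335). The remaining values were 0.56 for Acta2, 0.52 for Dcn and -0.01 for Lrat. Of the 10 members 0 were called, against 0.619% of all genes, and groups did not overlap for 0 of the 10, against 18.5% of all genes. At an unadjusted p under 0.05 stood 3 members, Col1a1, Col4a1 and Lum, and 1985 of all genes. The members' median was 0.77, against 0.27 over all genes. After median-of-ratios scaling these were 0.51 and 0.01. Col1a1 and Timp1 passed the filter on low values in exactly 3 libraries, of which 2 were S302A_DEN and 1 was S302A_Ctrl.

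Without S302A_DEN replicate 3 the differences of the knock-in group were smaller. Col1a1 and Timp1 then failed the filter, 8 members were tested and 0 were called. Their median was 0.16, against 0.00 over the 11883 genes tested. Lum differed by 0.42, Col4a1 by 0.29, Col1a2 by 0.20, Acta2 by 0.17 and Col3a1 by 0.15. Col4a2 stood at -0.10, Dcn at -0.01 and Lrat at -0.43, and the smallest adjusted p of the 8 was 0.333. Without S302A_DEN replicate 2, the library with 5 members at the floor, Col3a1 differed by 1.85 and passed the test (adjusted p = 0.0490). In that fit 335 of all 12067 genes were called.

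The knock-in against wild type in untreated livers showed small differences in these genes. Dcn averaged 32.7 ± 4.19 TPM in S302A_Ctrl, against 41.6 ± 5.35 TPM in WT_Ctrl, and did not pass the test, at a log2 difference of -0.34 (adjusted p = 1). Lum also stood lower on average, at 1.67 ± 0.599 TPM against 2.48 ± 1.14 TPM, and its groups overlapped. The other 8 members had differences between -0.17 for Col3a1 and 0.15 for Col4a1. Of the 10 members 0 were called, against 0.0330% of all genes, and 0 had an unadjusted p under 0.05. Groups did not overlap for 1 of the 10, Dcn, against 6.96% of all genes. The members' median was 0.02 and that of all genes -0.07, and in the fit without S302A_DEN replicate 3 these were 0.02 over 8 members and -0.07, with 0 members called.

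The knock-in against wild type after DEN shares its S302A_DEN libraries with the DEN comparison in the knock-in. The collagen chains had higher means in S302A_DEN than in WT_DEN and none passed the test, with log2 differences of 1.06 for Col4a1 (adjusted p = 0.620), 1.06 for Col3a1 (adjusted p = 0.753), 1.03 for Col1a1 (adjusted p = 0.580), 0.97 for Col1a2 and 0.79 for Col4a2. Dcn at -0.15 and Lrat at -0.08 were the 2 members with lower mean log2 values in the knock-in, while 60.0% of all genes had higher ones. Of the 10 members 0 were called, against 0.380% of all genes, and groups did not overlap for 0 of the 10, against 9.41% of all genes. At an unadjusted p under 0.05 stood Col1a1 and Col4a1, and 949 of all genes. Col1a1 and Timp1 passed the filter on low values through knock-in libraries alone, so their differences from wild type had to be higher in the knock-in. The members' median was 0.71, against 0.07 over all genes. Without S302A_DEN replicate 3 the median of the 8 tested members was 0.10, against -0.20 over all genes, and the lowest values were -0.68 for Dcn (adjusted p = 0.176) and -0.50 for Lrat (adjusted p = 0.174).

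The interaction asks whether the DEN difference was unlike in the 2 genotypes. It ran from -0.18 for Lrat to 1.22 for Col3a1, with 0 of 10 members called (smallest adjusted p 0.975), against 0.0413% of all genes. Col1a1 and Timp1 were at the floor in all wild-type libraries, so their interactions, 1.02 and 0.60, equal their DEN differences in the knock-in. They passed the filter through knock-in libraries alone, so their interaction and average values rest on those libraries. The interaction median was 0.79, against 0.14 over all genes. Without S302A_DEN replicate 3 that median was 0.08 over 8 members, against -0.13 over all genes. The average DEN difference of both genotypes ran from 0.08 for Lrat (-0.10 after scaling) to 0.59 for Col4a1, with 0 of 10 members called, against 1.34% of all genes, and a median of 0.40, against 0.21. All 10 members had higher means for the average, as did 80.7% of all genes. Without S302A_DEN replicate 3, 5 of the 8 tested did, beside 7442 of all 11883 genes. The median of the 8 was then 0.14, against 0.07 over all genes. Dcn passed the test for the average only without S302A_DEN replicate 2 (0.70, adjusted p = 0.0493), a fit in which 1037 of all 12067 genes were called. No member had an unadjusted p under 0.05 in the interaction or the average.

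**Figure D2:**
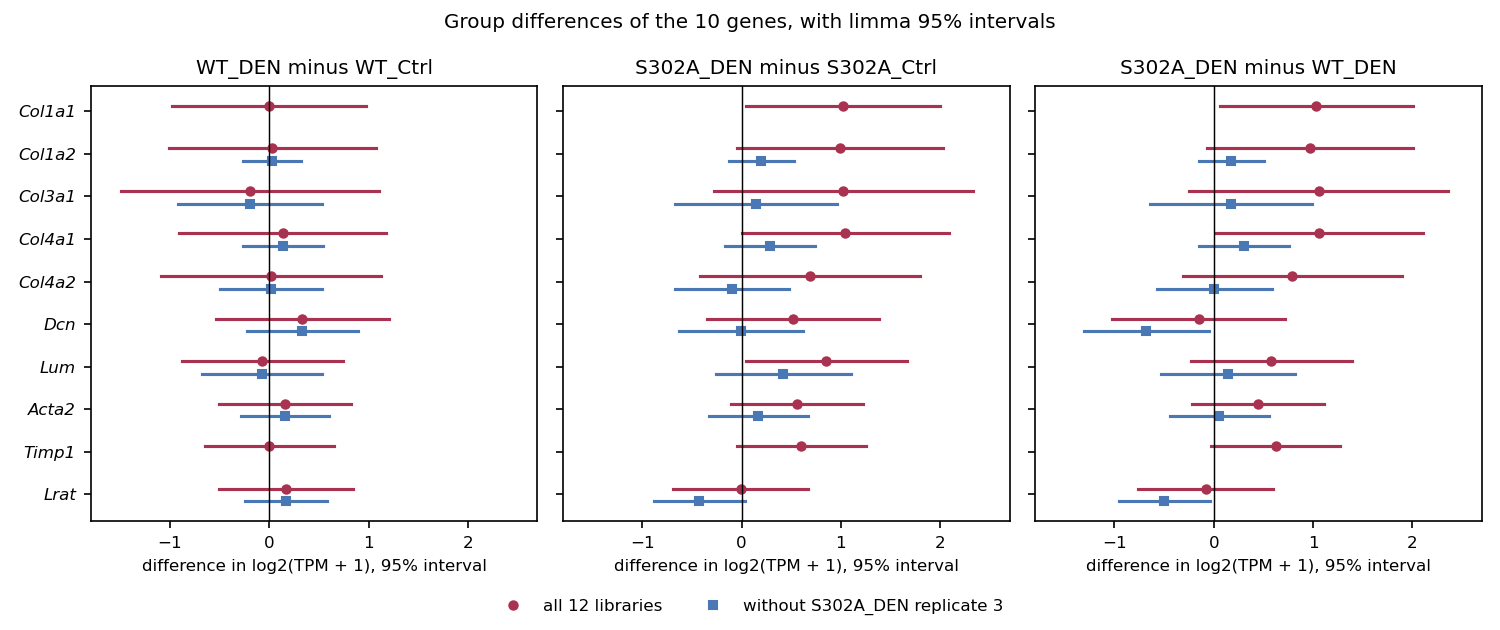
Differences in log2(TPM + 1) of the 10 genes with limma 95% intervals in 3 comparisons, with all 12 libraries (circles) and without S302A_DEN replicate 3 (squares). In both comparisons with S302A_DEN the collagen chains move from 0.69 to 1.06 with all libraries to between -0.10 and 0.30 without that library, and Col1a1 and Timp1 have no square because they were not tested without it.

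Within S302A_DEN replicate 3 the members did not stand out equally. As deposited, 10 of 10 were highest in this library, against 70.8% of all genes tested. Col1a2 was 6.05 times the next highest library, Col1a1 5.26, Col4a1 5.19, Col4a2 4.84, Col3a1 4.22 and Timp1 3.42 times. Lum was 2.23, Acta2 1.97, Dcn 1.54 and Lrat 1.49 times the next highest. The next highest library was S302A_DEN replicate 1 for Col1a1, Col1a2, Col3a1, Col4a1, Lum and Timp1, and WT_DEN replicate 1 for Col4a2, Dcn, Acta2 and Lrat. After division by the median-of-ratios factors 9 of 10 were still highest there, against 24.0% of all genes, at 3.50 times for Col1a2, 3.05 for Col1a1, 3.01 for Col4a1, 2.98 for Col4a2, 2.45 for Col3a1 and 1.98 for Timp1. Lum was then 1.29, Acta2 1.18 and Dcn 1.07 times the next highest, and Lrat stood at 0.88 of it. By the log2 difference from the mean of the other 11 libraries, 1.55% of tested genes lay at or above Col3a1, 2.27% at or above Col1a1, 14.5% at or above Dcn and 34.9% at or above Lrat.

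**Figure D3:**
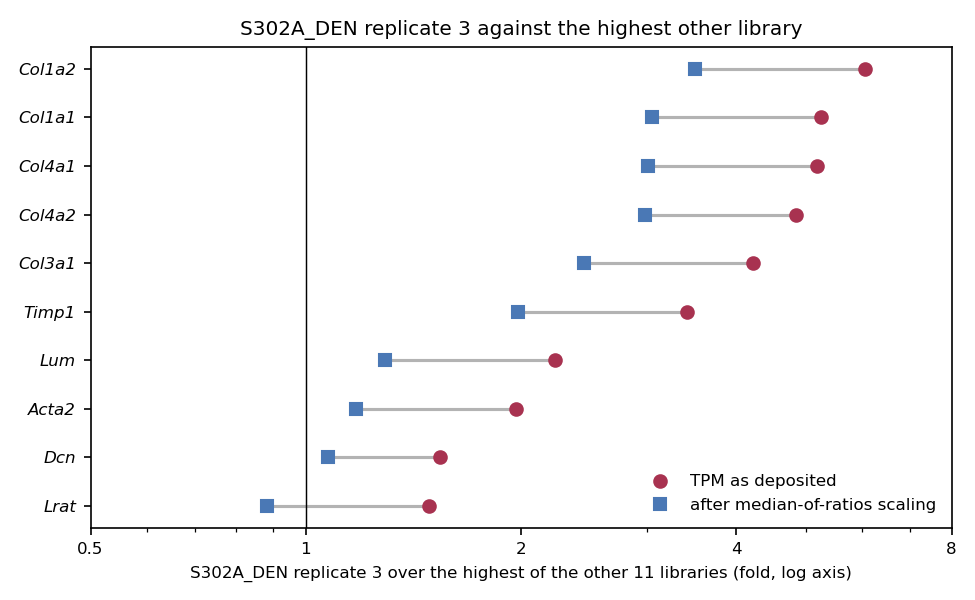
Level of each gene in S302A_DEN replicate 3 as a fold of the highest of the other 11 libraries (log axis), from TPM as deposited (circles) and after median-of-ratios scaling (squares). The 5 collagen chains lie between 2.45 and 3.50 after scaling, while Dcn at 1.07 and Lrat at 0.88 lie near 1.

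Other genes of the stellate cell and of the matrix were given as lists that overlap with the 10 (Lrat and Dcn stand in the stellate identity list, Acta2, Col1a1, Col1a2, Col3a1 and Timp1 in the myofibroblast list, and the collagens, Dcn, Lum and Timp1 also in the matrix lists). After scaling, the 14 tested genes of activated myofibroblasts had a median log2 difference of 1.59 between S302A_DEN replicate 3 and the other libraries, with 12 of 14 highest there. The 20 tested genes of stellate identity had a median of 0.07, with 6 of 20 highest there. Among the identity genes Reln, a secreted glycoprotein, reached 86.0 TPM (4.16 times the next highest after scaling) and the ectoenzyme gene Nt5e 39.7 TPM (3.28 times). The collectin genes Colec11 (0.75) and Colec10 (0.43) and the peptide receptor gene Vipr1 (0.28) lay below the highest of the other libraries. Reln, Nt5e and Colec11 were picked after their values were seen. Of the 5 tested fibrillar chains 3 are members. The others, Col5a2 and Col5a3, had scaled log2 differences of 0.83 and 0.19 from the mean of the other libraries. The medians were 0.43 for 12 basement membrane genes, 0.40 for 19 TGF-β and PDGF signalling genes, 0.22 for 15 collagen processing genes and 0.14 for 12 retinoid genes. Nid1, which encodes a linker of laminin and type IV collagen, reached 26.1 TPM (4.02 times).

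Markers of other cell types also stood high or low in the same library. As deposited, the summed level of 13 macrophage markers was 929.5 TPM in S302A_DEN replicate 3, against 122.7 to 311.3 TPM elsewhere, and 9 of 13 were highest there after scaling. The 7 tested liver tumour genes had a scaled median of 3.61 with 7 of 7 highest there, the 4 tested proliferation genes 1.45, the 12 sinusoidal endothelial genes -0.07 and the 11 hepatocyte genes -1.51. As deposited, the 9 portal fibroblast markers summed to 30.8 TPM in S302A_DEN replicate 3. They summed to 10.1 to 11.8 TPM elsewhere, mostly from markers at the floor, each of which adds 1 TPM. After scaling, 2 of 3 tested genes were highest in S302A_DEN replicate 3. The 9 smooth muscle markers summed to 54.3 TPM as deposited, against 28.4 to 45.0 TPM, with 2 of 5 tested genes highest there after scaling and Myh11 at 1 TPM in all 12. Their part in the members' levels was not tested.

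**Figure D4:**
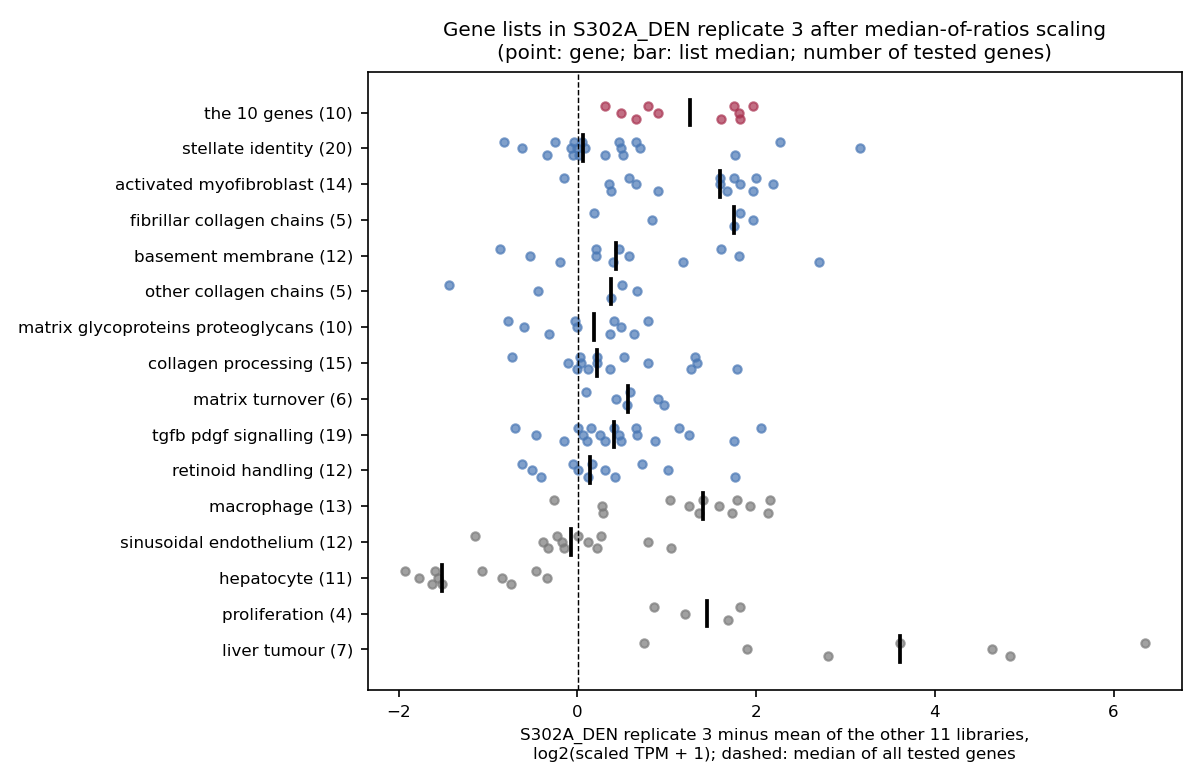
Difference between S302A_DEN replicate 3 and the mean of the other 11 libraries in log2(scaled TPM + 1), 1 point for each tested gene, with a bar at each list's median and a dashed line at the median of all tested genes (0.00). The 10 genes (median 1.26) and the myofibroblast list (1.59) lie to the right, the stellate identity list (0.07) lies around the dashed line, and the hepatocyte list (-1.51) lies to the left.

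Across the design, a called gene that is no member was found among the fibrillar chains, 1 of 5 tested. It passed the filter on low values only through S302A_DEN, the group where it is high, so it had to differ there and its test is given as a description. Col5a2, which encodes a chain of type V collagen, a minor fibrillar collagen that helps start type I fibrils, stood at 1 TPM in all 6 wild-type libraries. S302A_Ctrl held 1, 1.16 and 1 TPM, and S302A_DEN held 3.40, 4.92 and 5.73 TPM, with all 3 libraries above the other 9. It differed between S302A_DEN and S302A_Ctrl by 1.45 on the log2(TPM + 1) scale (SE 0.17, adjusted p = 0.00180) and between S302A_DEN and WT_DEN by 1.48 (adjusted p = 0.00285). The second value is a lower bound because WT_DEN stood at the floor. S302A_DEN replicate 2, where Col1a1, Col1a2 and Col3a1 stood at 1 TPM, held 4.92 TPM of Col5a2. The interaction for Col5a2 was 1.45 (adjusted p = 0.0552, and 0.00865 without S302A_DEN replicate 3). Without that library the difference in the knock-in was 1.31 (adjusted p = 0.000833). Col5a2 lies beside Col3a1 on mm10 chromosome 1, from 45374321 to 45503282 on the minus strand. Its spread rests on few libraries above the floor, and with the libraries of a comparison alone it missed the threshold (adjusted p = 0.112 in the knock-in, 0.123 against WT_DEN).

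Spp1, which encodes osteopontin and stands in the cholangiocyte list, was high in the same 3 libraries, at 59.0, 55.3 and 122 TPM against 13.7 to 32.1 TPM in the other 9. The 9 cholangiocyte markers, Spp1 included, summed to 70.6 to 156.7 TPM in S302A_DEN and 30.4 to 39.6 TPM in WT_DEN. The sums were 25.6 to 29.6 TPM in S302A_Ctrl and 28.6 to 44.6 TPM in WT_Ctrl. Each marker at the floor adds 1 TPM to these sums. Spp1 alone held most of the S302A_DEN sums, at 59.0 of 76.6, 55.3 of 70.6 and 122 of 156.7 TPM. Of the defining markers Krt7 stood at 1 TPM in all 12 libraries, and Krt19 and Epcam stood at 1.93 and 1.10 TPM in S302A_DEN replicate 3 and at 1 elsewhere. Their part in the level of Col5a2 was not tested.

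**Figure D5:**
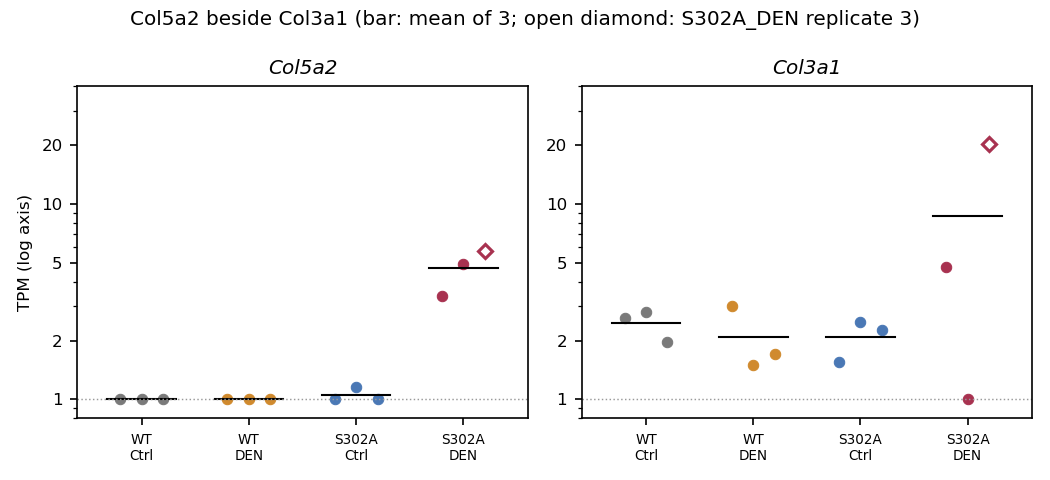
TPM (log axis) of Col5a2 and Col3a1 by library and group, with a bar at the mean of 3 and a dotted line at 1 TPM. The 3 S302A_DEN libraries of Col5a2 (3.40 to 5.73 TPM) all lie above the other 9, while those of Col3a1 run from 1 to 20.2 TPM.

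Other matrix genes showed no call with all libraries. Of the 12 tested basement membrane genes, 15 collagen processing genes, 6 matrix turnover genes and 19 TGF-β and PDGF genes, 0 were called in any of the 6 comparisons. Among collagen processing genes all 15 had higher means for the average DEN difference, beside 80.7% of all genes (median 0.55, against 0.21 over all genes). Ppib, a prolyl isomerase of the endoplasmic reticulum, differed by 0.50 (adjusted p = 0.0600) and Sec31a, a coat protein of the vesicles that export procollagen, by 0.63 (adjusted p = 0.0603). Without S302A_DEN replicate 3, 5 of these 15 were called higher in the average (Plod1, Ppib, Bmp1, Sec13 and Sec31a), beside 492 of 11883 genes.

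The genes whose levels ran most like a member's over the 11 libraries other than S302A_DEN replicate 3 were found among 7363 genes of at least 5 TPM on average. For Dcn they were Ggt6 (r = 0.968), Cd81 (0.965) and Haus7 (0.956), and for Lrat Car3 (0.953) and Nit2 (0.947). For Col4a1 they were Kti12 (0.860), AK197965 (0.834) and Lmna (0.831), and for Acta2, above 1 TPM in 6 of the 11, Abhd17b (0.891), mKIAA0217 (0.876) and LOC100503676 (0.858). With all 12 libraries r was 0.983 for Dcn and Ggt6 but 0.128 for Lrat and Car3. Col1a1 and Timp1 were above 1 TPM in only 2 of the 11 libraries, and for both the nearest gene was Hsd17b2 (0.848 and 0.847). The libraries share their scaling, so these values describe them and carry no test.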

How the data were processed

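RNA was isolated from liver with an RNeasy column kit and sequenced from TruSeq libraries on an Illumina HiSeq instrument, per the labels' protocols. The authors deposited TPM values per gene symbol; the submitters' processing notes name kallisto and mm10, while versions and the annotation release are not given in the sources used here. The floor of 1 was read from the values: 17258 of 31253 symbols stood at 1 in all 12 libraries. TPM keeps no depth, so counting precision is unknown. Among the 66 pairs of libraries 0 held identical values.

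Values were analysed as log2(TPM + 1), with a pseudocount of 1, in R 4.3.3 with limma 3.58.1: a model of the 4 groups over all 12 libraries (8 residual degrees of freedom), empirical Bayes moderation with a trend, 6 contrasts, two-sided tests and Benjamini-Hochberg adjustment over the 12120 genes with TPM above 1 in at least 3 libraries, threshold 0.05. The fit was tested on simulated data. Replicate numbers were not taken as pairs: deviations of same-numbered libraries correlated over 0.1 in 5 of 18 pairs (-0.187 to 0.282). Gene coordinates are from GENCODE for mm10.

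The members and lists were chosen with earlier results of these data known. Named from each other list were the up to 3 genes with the smallest p for the average DEN difference and for the knock-in after DEN where a result turned on them, every called gene up to 6 per list, and for 6 members the 3 genes of highest Pearson r. Alternatives were a pseudocount of 0.1, no filter (genes above 1 in any library), median-of-ratios scaling, a stricter filter (3 libraries at 5 TPM or more), the libraries of a contrast alone, a replicate block and leaving out each library. A few genes named by these rules were left out of the text and are not reported.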

Additional observations from a re-analysis of the deposited data

Results flagged for a closer look

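Lum differed in direction between the genotypes. All 3 WT_DEN libraries (1.86, 2.29 and 2.41 TPM) lay below the mean of WT_Ctrl (2.48 TPM), and all 3 S302A_DEN libraries (3.44, 1.78 and 7.66 TPM) lay above the mean of S302A_Ctrl (1.67 TPM). The difference of the 2 DEN effects was 0.924 on the log2(TPM + 1) scale, and it did not pass the test of the interaction (limma adjusted p = 0.975). The wild-type direction changed when WT_Ctrl replicate 1, WT_Ctrl replicate 2 or WT_DEN replicate 1 was left out.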

How the results depend on the processing

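Leaving out single libraries gave 0 to 1 called members for DEN in S302A and for the average DEN difference (the 1 is Col3a1 and Dcn respectively, each without S302A_DEN replicate 2), and 0 elsewhere and under each other alternative. Without S302A_DEN replicate 2, 335 of all 12067 genes were called for DEN in S302A and 1037 for the average. Of 964 member values under alternatives, 929 kept direction and call, 33 reversed and 2 became called. With median-of-ratios scaling the average DEN difference of Lrat was -0.10, and the wild-type DEN differences of Col1a2 and Col4a2 were -0.066 and -0.11. Reversals on leaving out 1 library gave these log2 ranges. For DEN in wild type they were -0.0025 to 0.079 for Col1a2, -0.063 to 0.31 for Col4a1, -0.21 to 0.19 for Col4a2, -0.38 to 0.11 for Lum and -0.080 to 0.28 for Acta2. For DEN in S302A they were -0.10 to 1.23 for Col4a2, -0.0071 to 1.06 for Dcn and -0.43 to 0.20 for Lrat. For S302A untreated they were -0.056 to 0.042 for Col1a2, -0.050 to 0.25 for Col4a2, -0.080 to 0.12 for Acta2 and -0.051 to 0.24 for Lrat. For S302A after DEN they were -0.68 to 0.39 for Dcn and -0.50 to 0.13 for Lrat. For the interaction they were -0.12 to 1.21 for Col4a2, -0.34 to 0.73 for Dcn and -0.59 to 0.032 for Lrat. For the average DEN difference they were -0.024 to 0.83 for Col3a1, -0.038 to 0.63 for Col4a2 and -0.13 to 0.18 for Lrat. The cause was not tested.

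Counts over all genes moved more. The 75 genes called for DEN in S302A (51 higher) became 651 (306 higher) with median-of-ratios scaling, 35 without the filter, 132 with TPM of at least 5, 17 with the libraries of the contrast alone and 16 to 335 on leaving out a library. The 46 of S302A after DEN became 210 with scaling, 28 without the filter, 4 alone and 6 to 700. The 16 of DEN in wild type became 3 without the filter, 147 alone and 1 to 258, the 4 of S302A untreated 0 without the filter, 2 alone and 0 to 12, the 5 of the interaction 12 with scaling and 2 to 75. The 162 of the average became 708 with scaling (322 higher, against 127), 86 without the filter and 17 to 1037. Under the replicate block 0 members were called in each comparison, and all-gene counts moved by over 1.5 times for DEN in wild type (5) and the average (87). With TPM of at least 5 in 3 libraries, Dcn alone of the 10 was tested.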
